A study of Rattus norvegicus with 48 samples.

Results

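The cytochrome P450 families CYP2, CYP3 and CYP4 were followed in liver and brain cortex of rats given the nitramine explosive RDX. The group was made of every gene whose symbol in the platform annotation begins with Cyp2, Cyp3 or Cyp4 and a subfamily letter, which gave 39 of the 14217 genes with a symbol of their own on the array (25 of CYP2, 4 of CYP3 and 10 of CYP4). They lie on 43 probe sets, and 4 further probe sets carry 2 member symbols each and are described apart. Male Sprague-Dawley rats received RDX once by mouth in a gel capsule, at 3 or 18 mg/kg, amounts below those that cause seizures. Liver and cortex were taken at 0, 4, 24 and 48 h, which made 16 groups of 3 Affymetrix arrays, 8 groups and 24 arrays in each tissue. All animals were housed in pairs, and their age is not stated in the labels. No group without RDX was used at the later times, so each later group was compared with the 0 h group of its own dose. Nothing in the labels ties an array to an animal of its own, so the p-values speak only to array-to-array spread, which may be technical.

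These enzymes sit in the membrane of the endoplasmic reticulum, take electrons from P450 reductase and insert oxygen into drugs, steroids and lipids. Hepatocytes carry most of them. CYP2 and CYP3 enzymes oxidise drugs, solvents and steroid hormones, and the CYP4 enzymes mainly hydroxylate fatty acids and eicosanoids at or near the chain's end. In rat liver the nuclear receptors CAR and PXR raise the CYP2B and CYP3A genes when foreign compounds arrive, PPARA raises the CYP4A genes, and the pattern of growth hormone release sets the sex-biased CYP2C, CYP2A and CYP3A genes.

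Values are log2 RMA values as deposited, so a difference of 1 is a doubling of signal. A gene was called when its Benjamini-Hochberg adjusted p from limma, over all 31042 probe sets, was below 0.05. Tissue identity was as labelled: the mean of 10 hepatocyte markers was 13.30 to 13.67 in 22 of the 24 liver arrays, and the mean of 8 neuron markers was 10.32 to 10.96 in cortex and 4.80 to 5.88 in liver. In both remaining liver arrays the values were squeezed into a narrow range. The SD over all probe sets was 1.49 in array 2 of the 3 mg/kg 0 h group and 1.38 in array 1 of the 18 mg/kg 4 h group, against 1.82 to 2.08 in the others. Their hepatocyte means were 12.44 and 10.94, and their Kupffer cell means 8.62 and 8.47 against 9.44 to 10.49 elsewhere. They also held the lowest value of all liver arrays for 15 and 12 of the 39 CYP genes. Array 1 of the 3 mg/kg 0 h group had the largest gap between 3' and 5' actin control probe sets in liver (4.38, against 2.76 to 3.89 in the other 21 arrays of normal range). Values from the fit without both narrow arrays are given beside the results they moved most.

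At 48 h after 3 mg/kg, 10 of the 39 CYP genes were called in liver, 9 higher and 1 lower than at 0 h. The 9 that rose were Cyp2c11, Cyp2c23, Cyp2c7, Cyp2f4, Cyp2j4, Cyp3a18, Cyp3a9, Cyp4b1 and Cyp4f1, by log2 0.90 to 2.16, and Cyp4f5 fell by 0.81. Their share, 25.64%, stood beside 9.34% of all probe sets called in that contrast (6% higher and 3.33% lower). The median change of the 39 genes was 0.48, and that of all probe sets was -0.16. With every array centred on its own median the median of all probe sets was 0.01 and that of the CYP genes 0.64, and with quantile normalisation these were -0.05 and 0.18. All 7 CYP2C genes and all 4 CYP3A genes lay above 0 as deposited and after centring, but 5 of 7 and 2 of 4 did after quantile normalisation, and 5 of 7 and 4 of 4 without the narrow arrays. For the 3 CYP2B genes the number above 0 was 0 as deposited, 2 after centring and 1 after quantile normalisation. In bulk tissue, a change in the share of hepatocytes and a change in RNA per hepatocyte cannot be told apart.

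These calls rested on few arrays. Leaving out the narrow 0 h array alone ended all 10, as did leaving out any 1 of the 3 arrays at 48 h, while 4 were kept without 0 h array 1 and all 10 plus 5 others were called without 0 h array 3. Without both narrow arrays, Cyp2c23, Cyp2f4 and Cyp3a18 remained called (3 of 39, beside 4.42% of all probe sets), and the median change of the 39 genes was 0.21. With both 0 h groups pooled as the control, none was called. Quantile normalisation gave 4 calls, Cyp2c23, Cyp2c7 and Cyp3a18 higher and Cyp4f6 lower. In the same contrast 0 of 10 hepatocyte markers were called, 2 of 6 Kupffer cell, 1 of 5 liver endothelial, 1 of 7 stellate and 1 of 5 bile duct markers were higher, and 1 of 8 neuron markers was lower. With both narrow arrays left out, these calls were 1 Kupffer cell and 1 endothelial marker higher and 1 stellate cell marker lower. The median change of the hepatocyte markers was 0.44, beside 0.48 for the CYP genes and -0.16 for all probe sets. Medians were 1.06 for Kupffer cell, 0.87 for endothelial, 0.285 for stellate, -0.12 for bile duct and -0.44 for neuron markers. Without the narrow arrays the hepatocyte median was 0.14, beside 0.21 for the CYP genes, so a rise of this size was not particular to them. The part of these cell types and of the narrow array in the CYP calls was not tested beyond those fits.

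**Figure D1:**
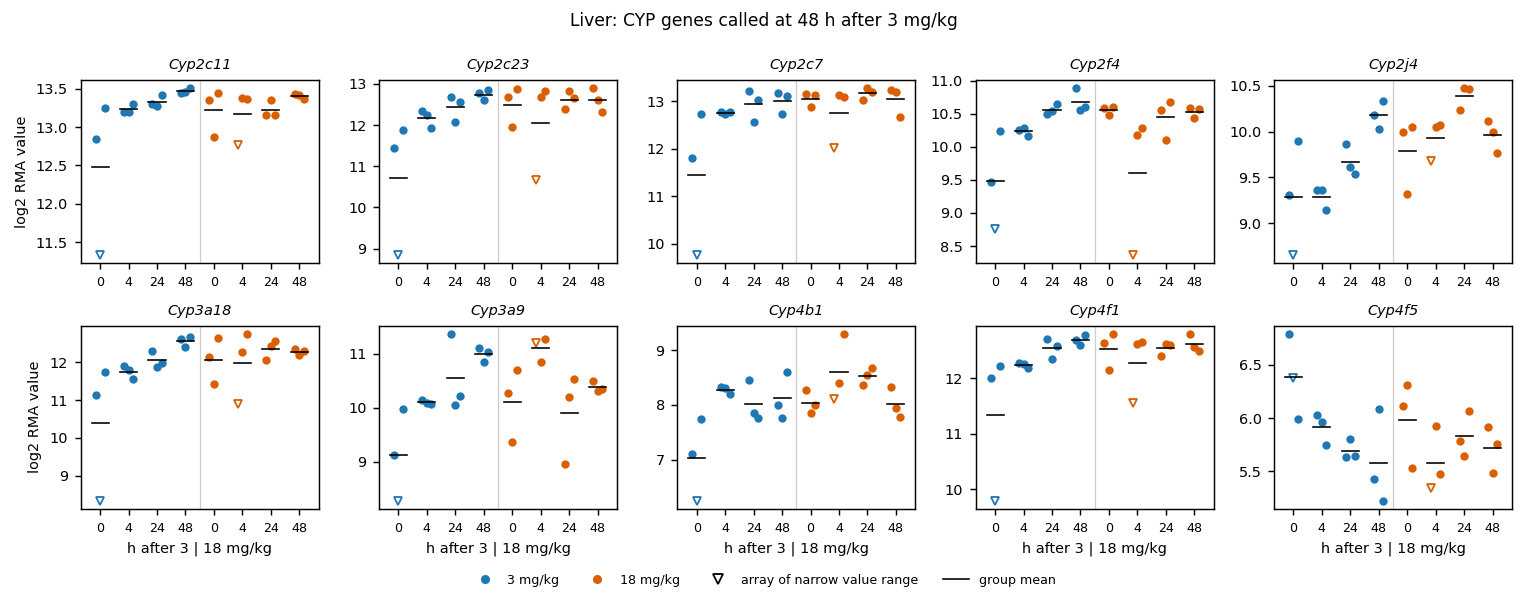
Log2 RMA values in liver (vertical axes) of the 10 CYP genes called at 48 h after 3 mg/kg, by hours after dosing (horizontal axes), with 3 mg/kg on the left and 18 mg/kg on the right of each panel. Dots are single arrays, open triangles the 2 arrays of narrow value range, and bars group means; in 9 of the 10 panels (all but Cyp4f5) the triangle at 0 h is the lowest value of its group.

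The CYP2C genes, which hydroxylate steroids, retinoids and arachidonic acid, had 3 of 7 members called at 48 h after 3 mg/kg. Cyp2c11, the main male-predominant testosterone hydroxylase of rat liver, read 12.84, 11.34 and 13.24 on the arrays at 0 h, 13.19, 13.20 and 13.29 at 4 h, 13.30, 13.27 and 13.41 at 24 h and 13.44, 13.46 and 13.51 at 48 h. All 3 arrays at 48 h lay above all 3 at 0 h, and the second 0 h array, one of the narrow ones, was the lowest (log2 change 0.99 ± 0.31 SE, n = 3, limma adjusted p = 0.0465). In the fit without the narrow arrays, the change was 0.43 (adjusted p = 0.12, and 0.000966 to 0.45 over its 17 alternatives). In the 18 mg/kg arm the same gene ran from 12.77 to 13.44 in all 12 arrays, and the 48 h arrays after 3 mg/kg lay at or just above the top of that range. Cyp2c23, an arachidonic acid epoxygenase, went from 11.43, 8.85 and 11.88 at 0 h to 12.79, 12.60 and 12.85 at 48 h, with 12.34, 12.24 and 11.94 at 4 h and 12.67, 12.07 and 12.55 at 24 h (log2 change 2.02 ± 0.55 SE, n = 3, limma adjusted p = 0.0327). No later array of that arm fell below the highest 0 h array. Without the 2 narrow arrays its change was 1.09 (adjusted p = 0.0347, and 5.94e-05 to 0.45 over its 17 alternatives). Its 18 mg/kg arrays read 12.68, 11.94 and 12.88 at 0 h and 12.90, 12.62 and 12.33 at 48 h, which overlapped.

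Cyp2c7, a retinoic acid hydroxylase, read 11.81, 9.77 and 12.74 at 0 h and 13.18, 12.74 and 13.11 at 48 h after 3 mg/kg (log2 change 1.57 ± 0.45 SE, n = 3, limma adjusted p = 0.0379). The third 0 h array reached the lowest of the 48 h arrays, so these groups overlapped, and without the narrow arrays the change was 0.73 (adjusted p = 0.075, and 6.43e-05 to 0.64 over its 17 alternatives). Cyp2c22 and Cyp2c6v1, the other drug and retinoid oxidising members, had log2 changes of 1.43 and 1.16 there (0.61 and 0.38 without the narrow arrays) and were not called. Cyp2c13, a male-specific steroid hydroxylase, hardly varied: its 24 liver arrays ran from 12.92 to 13.45, and its log2 change at 48 h after 3 mg/kg was 0.08, and -0.07 without the narrow arrays. Cyp2c12, known as the female-predominant steroid sulfate hydroxylase, was among the most variable genes within groups. Its liver mean was 11.60 although all rats were male, and whether its probe set also reads other CYP2C transcripts was not tested. Cyp2c12 read 11.17, 10.29 and 12.01 in the low-dose 0 h group, 9.98, 11.86 and 10.77 in the high-dose 0 h group and 10.72, 11.99 and 11.88 at 48 h after 18 mg/kg. At 4 h its arrays were close together, 12.03, 11.95 and 12.02 after 3 mg/kg and 11.95, 11.88 and 11.69 after 18 mg/kg. Its spread within groups, taken without the narrow arrays, was 0.58 (pooled SD), larger than in 97.7% of all probe sets, and no liver contrast called it.

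The start regions of 3 of these genes are shown because Cyp2c11 and Cyp2c7 were called while Cyp2c13, on the same chromosome, was steady. RefSeq promoter sequences of the GRCr8 build were matched for 33 of the 39 members, and the 250 bases before the start of transcription were searched on both strands for 6 short motifs. The windows are chr1:246174966-246175215 (plus strand) for Cyp2c11, chr1:247966144-247966393 (plus strand) for Cyp2c7 and chr1:248787189-248787438 (minus strand) for Cyp2c13, each printed 5′ to 3′ on the gene's strand with matches to any of the motifs in capitals.
Cyp2c11: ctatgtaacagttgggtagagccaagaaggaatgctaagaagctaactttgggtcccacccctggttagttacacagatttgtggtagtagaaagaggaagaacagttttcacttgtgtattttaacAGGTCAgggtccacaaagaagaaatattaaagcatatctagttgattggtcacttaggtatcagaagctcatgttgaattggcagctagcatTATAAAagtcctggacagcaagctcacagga
Cyp2c7: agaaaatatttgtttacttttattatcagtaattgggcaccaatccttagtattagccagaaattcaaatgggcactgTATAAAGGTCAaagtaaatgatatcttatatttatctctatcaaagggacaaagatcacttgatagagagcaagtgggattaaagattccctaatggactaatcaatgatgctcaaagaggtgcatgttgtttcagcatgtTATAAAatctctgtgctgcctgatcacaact
Cyp2c13: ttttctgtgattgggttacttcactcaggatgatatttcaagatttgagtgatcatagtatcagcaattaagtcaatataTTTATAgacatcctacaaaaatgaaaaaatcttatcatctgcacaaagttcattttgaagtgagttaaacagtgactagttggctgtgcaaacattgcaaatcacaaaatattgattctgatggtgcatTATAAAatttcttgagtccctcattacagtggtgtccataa
The capitals mark TATAAA, the letters of the TATA box, and AGGTCA, the core letters of nuclear receptor sites. TATAAA began 31 bases before the start in Cyp2c11 and in Cyp2c7 and 41 before it in Cyp2c13. Each of the latter pair held it once more, at 172 in Cyp2c7 and on the other strand at 170 in Cyp2c13. AGGTCA began at 123 in Cyp2c11 and at 167 in Cyp2c7, where it shares its first base with the upstream TATAAA, and was not among the letters of the Cyp2c13 window. Over the 33 members, 9 windows (27.3%) held TATAAA, beside 12.9% of 33469 promoters of that length, and 11 (33.3%) held AGGTCA, beside 14.1%. Matches count at any place and on either strand, so these are not shares with a working TATA box. In Cyp2c22 the TATAAA began at 197, and in Cyp2d3 it lay on the other strand. Whether any motif, in these windows or in the CYP3A windows below, bears on a call was not tested.

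Of the 4 CYP3A genes, the main drug and testosterone oxidising subfamily, 2 were called at 48 h after 3 mg/kg. Cyp3a18, a male-predominant member, had the largest change of all 39 genes. It read 11.14, 8.34 and 11.74 at 0 h, 11.90, 11.79 and 11.55 at 4 h, 12.31, 11.89 and 11.99 at 24 h and 12.63, 12.41 and 12.68 at 48 h (log2 change 2.16 ± 0.56 SE, n = 3, limma adjusted p = 0.0282). The 48 h arrays all lay above the 0 h arrays, of which the narrow one stood far below both others. When the narrow arrays were left out, the change was 1.13 (adjusted p = 0.0348, and 4.8e-05 to 0.45 over its 17 alternatives). After 18 mg/kg its arrays were 12.13, 11.44 and 12.64 at 0 h and 12.35, 12.21 and 12.30 at 48 h, a log2 change of 0.21.

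Cyp3a9, a member with a female bias in rat liver that is also found outside liver, read 9.12, 8.27 and 9.98 at 0 h and 11.11, 10.84 and 11.04 at 48 h after 3 mg/kg (log2 change 1.87 ± 0.41 SE, n = 3, limma adjusted p = 0.0245). It had the smallest adjusted p of the 39 genes in that contrast. Once the narrow arrays were dropped, it missed the threshold (log2 1.45, adjusted p = 0.0525, and 7.42e-05 to 0.45 over its 17 alternatives). After 18 mg/kg the arrays read 10.26, 9.36 and 10.70 at 0 h, 11.21, 10.85 and 11.27 at 4 h, 8.96, 10.19 and 10.54 at 24 h and 10.50, 10.31 and 10.35 at 48 h. All 3 arrays at 4 h lay above the 0 h arrays, without a call (log2 change 1.004 ± 0.41 SE, n = 3, limma adjusted p = 0.435). Cyp3a2, the main male form, and Cyp3a23-3a1, the form most known for induction through PXR, were not called in any liver contrast. Cyp3a2 read 12.94, 12.31 and 12.96 at 0 h and 12.99, 13.05 and 13.001 at 48 h after 3 mg/kg, and all 24 arrays ran from 12.31 to 13.22. Cyp3a23-3a1 ran from 12.16 to 12.88. After 18 mg/kg its arrays at 4, 24 and 48 h all lay above the 0 h arrays (12.58, 12.48 and 12.56 at 0 h and 12.86, 12.81 and 12.85 at 24 h), by log2 0.20 to 0.30, and none of the 3 changes was called (limma adjusted p = 0.615 at 4 h).

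The windows of the called Cyp3a18 and Cyp3a9 are set beside that of the steady Cyp3a2. They are chr12:13994062-13994311 (plus strand), chr12:21960161-21960410 (minus strand) and chr12:14343858-14344107 (minus strand), again in GRCr8 and with matches in capitals.
Cyp3a18: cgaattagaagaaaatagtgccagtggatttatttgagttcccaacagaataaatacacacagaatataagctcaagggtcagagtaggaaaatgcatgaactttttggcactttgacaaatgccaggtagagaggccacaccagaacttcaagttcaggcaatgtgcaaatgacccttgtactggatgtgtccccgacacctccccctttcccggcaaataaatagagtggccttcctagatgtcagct
Cyp3a9: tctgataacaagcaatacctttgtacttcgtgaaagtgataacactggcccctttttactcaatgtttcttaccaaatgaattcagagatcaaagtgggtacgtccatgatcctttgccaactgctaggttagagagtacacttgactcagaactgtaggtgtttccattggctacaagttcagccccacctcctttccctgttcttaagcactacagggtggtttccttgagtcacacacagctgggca
Cyp3a2: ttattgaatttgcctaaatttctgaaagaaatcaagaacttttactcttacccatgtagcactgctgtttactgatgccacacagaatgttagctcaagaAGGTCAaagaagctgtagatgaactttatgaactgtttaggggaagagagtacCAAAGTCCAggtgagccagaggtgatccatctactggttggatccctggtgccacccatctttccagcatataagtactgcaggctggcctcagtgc
Cyp3a2 held AGGTCA, 150 bases before the start, and CAAAGTCCA, an HNF4A site, at 97. Cyp3a23-3a1, whose window is not printed, held the same pair at 164 and 110. CAAAGTCCA was in 0.338% of all promoters of this length, and in 2 of the 33 members. The Cyp3a18 and Cyp3a9 windows matched none of the 6 motifs, which says only that these letters are not in them. The other motifs were TTATGTAA, the PAR bZIP site (Cyp2g1 alone, beside 0.828% of all), GTTAAT, part of an HNF1 site (4 of 33, beside 6.45%), and TTCNNNGAA, the STAT5 site, which reads alike on both strands (3 of 33, Cyp2j4, Cyp2t1 and Cyp4a8, beside 7.67%).

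**Figure D2:**
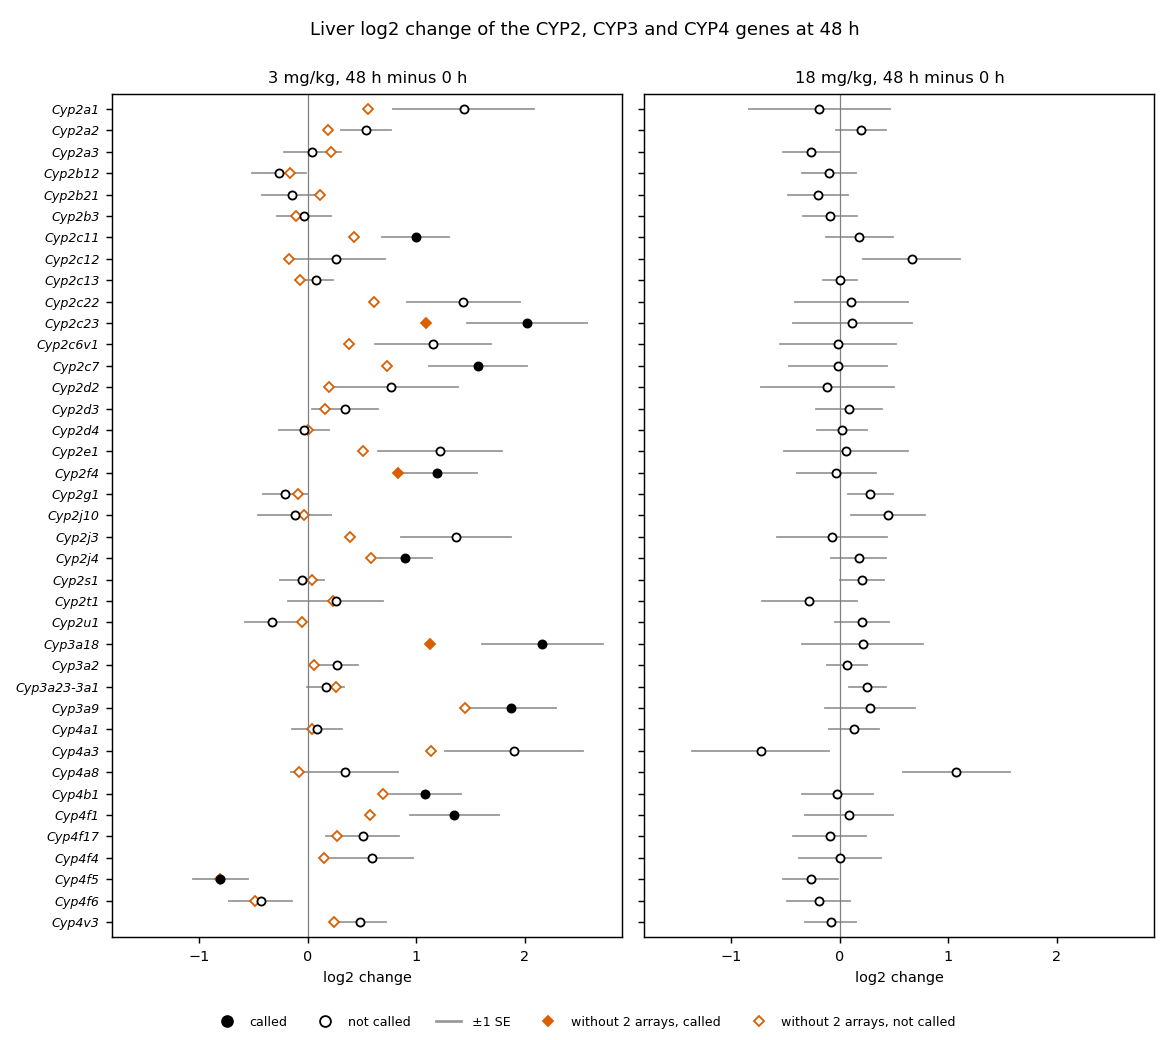
Log2 change from 0 to 48 h in liver (horizontal axes) of each of the 39 CYP genes (vertical axis) after 3 mg/kg (left) and 18 mg/kg (right), as circles with bars of ±1 SE, filled where called. Orange diamonds on the left leave out the 2 arrays of narrow range: Cyp2c23, Cyp2f4 and Cyp3a18 are still called, and most other diamonds lie nearer 0 than their circles; no circle on the right is filled.

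Among the remaining CYP2 genes, Cyp2f4 and Cyp2j4 were called at 48 h after 3 mg/kg. Cyp2f4, which oxidises small aromatic compounds such as naphthalene, read 9.47, 8.77 and 10.23 at 0 h and 10.89, 10.55 and 10.60 at 48 h, without overlap (log2 change 1.19 ± 0.36 SE, n = 3, limma adjusted p = 0.0437). It stayed called without the narrow arrays (log2 0.83, adjusted p = 0.0348, and 7.47e-06 to 0.453 over its 17 alternatives). In the 18 mg/kg arm it was at 10.59, 10.48 and 10.60 at 0 h and 10.58, 10.43 and 10.57 at 48 h, next to its 48 h level after 3 mg/kg. Cyp2j4, a fatty acid epoxygenase, read 9.31, 8.66 and 9.89 at 0 h and 10.19, 10.03 and 10.34 at 48 h (log2 change 0.90 ± 0.25 SE, n = 3, limma adjusted p = 0.0351), and missed the threshold without the narrow arrays (log2 0.58, adjusted p = 0.101, and 0.000157 to 0.45 over its 17 alternatives). At 24 h after 18 mg/kg its arrays, 10.23, 10.47 and 10.46, lay above those at 0 h, 9.99, 9.31 and 10.05, with log2 0.60 and no call. The 2 probe sets of Cyp2j3, a related epoxygenase, were split. The brighter one, which stands for the gene, changed by 1.36 at 48 h after 3 mg/kg (adjusted p = 0.0805), and the other by 0.82 (adjusted p = 0.0466), so the dimmer one alone passed. Without the narrow arrays these were 0.39 and 0.39, both uncalled. Cyp2j10 read 6.23 to 7.16 after 3 mg/kg, and 8.45, 7.17 and 6.78 at 4 h after 18 mg/kg against 6.58, 6.12 and 6.75 at 0 h, with its highest value on the narrow array.

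Cyp2e1, which oxidises ethanol and small solvents, read 12.72, 10.68 and 12.90 at 0 h and 13.33, 13.18 and 13.45 at 48 h after 3 mg/kg, without overlap and without a call (log2 change 1.22 ± 0.57 SE, n = 3, limma adjusted p = 0.145). With both narrow arrays left out, the change was 0.51 (adjusted p = 0.0662). After 18 mg/kg its 24 h arrays, 13.40, 13.47 and 13.42, all lay above the 0 h arrays, 13.29, 13.03 and 13.32, by 0.21. None of the 3 CYP2A genes was called. Cyp2a1, a testosterone hydroxylase, read 8.64, 6.09 and 8.81 at 0 h and 9.42, 8.99 and 9.44 at 48 h after 3 mg/kg, with a log2 change of 1.44, and of 0.56 without the narrow arrays. Cyp2a2, a male-specific steroid hydroxylase, read 12.44, 11.46 and 12.54 at 0 h and 12.76, 12.62 and 12.67 at 48 h (log2 0.54, and 0.19 without the narrow arrays). Cyp2a3, better known from lung and nose, ran from 4.63 to 6.01. The probe set shared by Cyp2a2 and Cyp2a1 changed by 1.13 at that time (adjusted p = 0.19), and by 0.44 without the narrow arrays.

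The CYP2B genes include the classic targets of CAR and phenobarbital. Cyp2b1 and Cyp2b2 are measured here only by a probe set that carries both symbols, so their values cannot be assigned to either. It read 11.24, 11.31 and 10.14 at 0 h, 9.52, 10.73 and 11.12 at 4 h, 12.14, 12.08 and 12.03 at 24 h and 10.96, 10.90 and 11.23 at 48 h after 18 mg/kg. The 24 h arrays lay close together and above every other liver array, and the difference from 0 h was not called (log2 change 1.19 ± 0.35 SE, n = 3, limma adjusted p = 0.9998; 0.259 without the narrow arrays). After 3 mg/kg it read 10.63, 10.02 and 10.88 at 0 h, 10.79, 11.25 and 11.33 at 24 h and 10.88, 11.45 and 11.73 at 48 h (log2 0.84, adjusted p = 0.107). Cyp2b3, a constitutive liver form, was the steadiest of the 39 along with Cyp2c13: the 22 arrays of normal range lay between 13.04 and 13.28, and the narrow array at 4 h read 11.72. Cyp2b12 and Cyp2b21, known from skin and gut, ran from 3.67 to 4.72 and from 4.23 to 5.48.

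The CYP2D genes, which oxidise many basic drugs, were not called. Cyp2d2 read 13.02, 11.29 and 12.999 at 0 h and 13.24, 13.20 and 13.17 at 48 h after 3 mg/kg, and 9.51, 13.16 and 13.07 at 4 h after 18 mg/kg, where the first, narrow array was far below the others. Cyp2d3 ran from 12.36 to 12.79 without the narrow arrays. Cyp2d4, the CYP2D form best known from brain, ran from 9.26 to 10.34. The probe set shared by Cyp2d5 and Cyp2d1 read 8.13, 12.34 and 12.36 at 4 h after 18 mg/kg, and its change there was -1.40 with the narrow array and 0.01 without both of them. Among the single-member subfamilies, Cyp2t1 changed by -1.06 at 4 h after 18 mg/kg, but by -0.25 without the narrow arrays, and by -0.82 at 24 h, where neither array enters. Its 24 h arrays, 9.87, 8.72 and 9.93, lay below its 0 h arrays, 10.16, 10.75 and 10.06. Cyp2u1, a fatty acid hydroxylase, read 8.60, 9.08 and 8.43 at 0 h and 7.96, 8.31 and 8.01 at 4 h after 18 mg/kg, without overlap (log2 -0.61, adjusted p = 0.435). Cyp2g1, an olfactory form, and Cyp2s1, an epithelial form, were dim in liver, at 5.21 to 6.39 and 5.46 to 6.21. None of these differences was called.

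In the CYP4 family, Cyp4b1, Cyp4f1 and Cyp4f5 were called at 48 h after 3 mg/kg. Cyp4b1, which hydroxylates short fatty acids and activates some protoxins, read 7.10, 6.25 and 7.75 at 0 h, 8.33, 8.31 and 8.20 at 4 h, 8.46, 7.85 and 7.76 at 24 h and 7.99, 7.76 and 8.60 at 48 h (log2 change 1.08 ± 0.33 SE, n = 3, limma adjusted p = 0.0423). Every later array of that arm lay above the 0 h arrays, and the largest change, 1.25 at 4 h, was not called (adjusted p = 0.245). After 18 mg/kg it read 8.27, 7.85 and 8.0 at 0 h and 8.10, 8.41 and 9.30 at 4 h. Over both doses at 4 h the change was 0.91 ± 0.23 (SE, n = 6), with a limma adjusted p of 0.153 and of 0.0907 without the narrow arrays (0.00107 to 0.416 over its 21 alternatives). In the fit without the narrow arrays, the 48 h change was 0.69 (adjusted p = 0.137, and 0.00104 to 0.581 over its 17 alternatives).

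Cyp4f1, an arachidonic acid and leukotriene hydroxylase, read 12.01, 9.79 and 12.22 at 0 h and 12.69, 12.60 and 12.79 at 48 h after 3 mg/kg (log2 change 1.35 ± 0.41 SE, n = 3, limma adjusted p = 0.0426). Its change was 0.58 without the narrow arrays (adjusted p = 0.0642, and 0.00159 to 0.45 over its 17 alternatives). Cyp4f5, of the same subfamily, was the called gene that fell. It read 6.79, 6.38 and 5.99 at 0 h, 6.03, 5.96 and 5.75 at 4 h, 5.63, 5.80 and 5.64 at 24 h and 5.42, 6.08 and 5.23 at 48 h, where 1 of the 3 arrays overlapped those at 0 h (log2 change -0.81 ± 0.25 SE, n = 3, limma adjusted p = 0.0479). The size was nearly the same without the narrow arrays (-0.81), but the adjusted p was 0.0778, and 9.67e-05 to 0.45 over its 16 alternatives. Cyp4f6, which like its relatives acts on eicosanoids, read lower at each later time in the 3 mg/kg arm, 12.04, 11.74 and 11.73 at 0 h against 11.38, 11.50 and 11.31 at 48 h, without overlap and without a call (log2 -0.43, adjusted p = 0.295). Cyp4f4 and Cyp4f17 changed by 0.59 and 0.51 there, uncalled, and by 0.15 and 0.27 without the narrow arrays. Cyp4v3, the counterpart of a human retinal disease gene, had 2 probe sets that changed by 0.48 and 0.55, also uncalled, and by 0.25 and 0.09 without the narrow arrays.

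The CYP4A genes are fatty acid hydroxylases and targets of PPARA, and none was called. Cyp4a8 read 6.12, 5.36 and 5.45 at 0 h, 7.98, 8.38 and 6.92 at 4 h, 6.96, 7.71 and 6.29 at 24 h and 7.08, 6.93 and 6.14 at 48 h after 18 mg/kg. All 9 later arrays lay above all 3 at 0 h, with changes of 2.11, 1.34 and 1.07, and the first is the largest change of any of the 39 genes in that arm (log2 change 2.11 ± 0.49 SE, n = 3, limma adjusted p = 0.279). It was not called there, with adjusted p of 0.004 to 0.857 over its 17 alternatives. In the 3 mg/kg arm the arrays ranged from 8.12, 5.95 and 6.28 at 0 h to 7.42, 6.15 and 7.79 at 48 h. Its spread within groups exceeded that of 98.8% of probe sets, and its second, dimmer probe set changed by 0.68 at 4 h after 18 mg/kg. Cyp4a1 read 11.56, 11.72 and 11.14 at 0 h, 12.54, 11.65 and 12.19 at 4 h and 11.98, 11.91 and 11.92 at 24 h after 18 mg/kg (log2 0.65 and 0.46, uncalled). Cyp4a3 read 9.89, 7.999 and 10.71 at 0 h and 11.55, 11.17 and 11.58 at 48 h after 3 mg/kg. That change, 1.90, just missed the threshold (adjusted p = 0.0584). It was 1.14 without the narrow arrays (adjusted p = 0.0602), and after 18 mg/kg it was -0.73 at 48 h. The probe set shared by Cyp4a3 and Cyp4a2 ran from 10.41 to 11.79 over all 24 arrays, with no call.

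**Figure D3:**
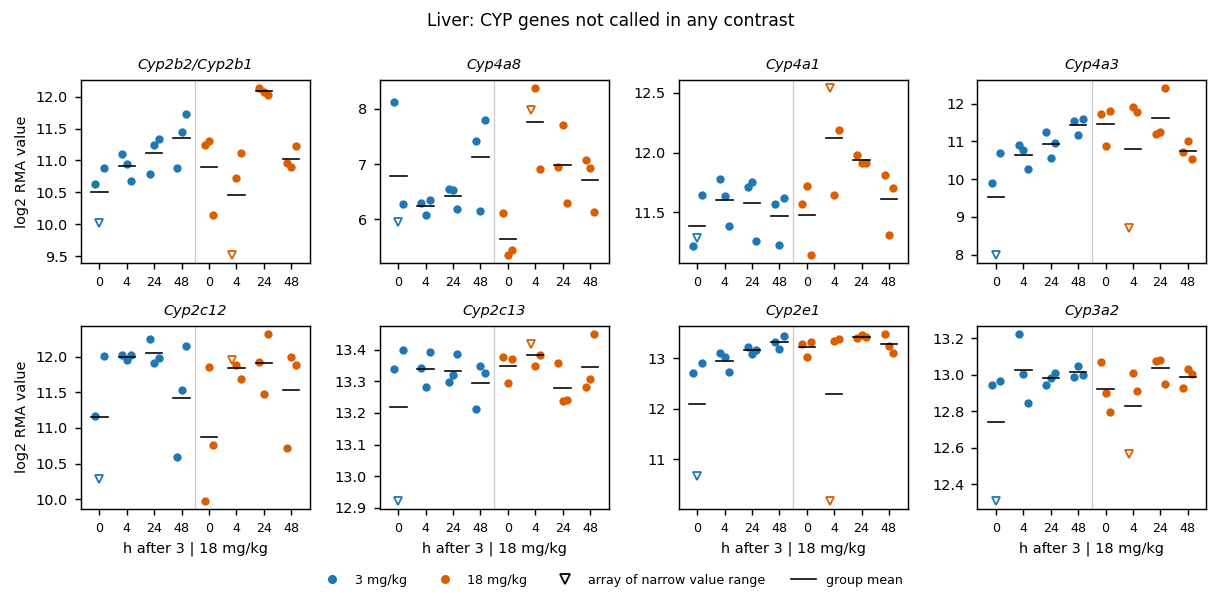
Log2 RMA values in liver (vertical axes) of 7 CYP genes and the probe set shared by Cyp2b2 and Cyp2b1, none of them called, by hours after 3 mg/kg (left) and 18 mg/kg (right). Dots are arrays, open triangles the 2 arrays of narrow range, bars group means; the shared probe set peaks at 24 h after 18 mg/kg (12.03 to 12.14), Cyp4a8 and Cyp2c12 scatter within groups, and the lowest values of Cyp2c13, Cyp2e1 and Cyp3a2 are triangles.

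In the other 5 liver contrasts no CYP gene was called. At 4 h and 24 h after 3 mg/kg, 0.0226% and 0% of all probe sets were called by limma. There 7 and 13 of the 39 genes had an unadjusted p below 0.05, beside 4402 and 6213 of all 31042 probe sets. Without the narrow arrays these were 1 and 10 genes, beside 3085 and 4625 of all probe sets. The smallest adjusted p were 0.245 for Cyp4b1 and 0.0988 for Cyp3a9, and without the narrow arrays 0.316 for Cyp4b1 and 0.142 for Cyp2f4. After 18 mg/kg, 0.0258% of probe sets were called at 4 h, 0% at 24 h and 0.0966% at 48 h. There 11, 3 and 1 of the 39 genes had an unadjusted p below 0.05, beside 3536, 753 and 517 of all probe sets. Cyp4a8 was first each time. When the narrow arrays were left out, the CYP counts were 4, 7 and 2, beside 1718, 1887 and 1270 of all probe sets. Cyp4a8 was then first at 4 h, Cyp2j4 at 24 h and Cyp4a3 at 48 h. At 4 h after 18 mg/kg the members' median was -0.25 and 14 of 39 lay above 0, but without the narrow arrays it was 0.11 and 26 lay above 0. Quantile normalisation also put that median above 0, at 0.01. Medians at 24 h and 48 h were both 0.02, beside 0.003 and 0.005 for all probe sets.

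Pooling the arrays of both doses, 6 against 6, gave no called CYP gene at 4, 24 or 48 h in limma. Of all probe sets 0.0934%, 0% and 0.0354% were called. Unadjusted p lay below 0.05 for 8, 9 and 12 of the 39 genes, beside 2770, 3881 and 4490 of all probe sets. Without the narrow arrays it did for 4, 11 and 13 of the 39, beside 3284, 3909 and 4265 of all probe sets. At 48 h, 30 of 39 changes were above 0 (median 0.30), with Cyp3a9 first (log2 1.08, adjusted p = 0.255). Once the narrow arrays were dropped, 31 were above 0, the median was 0.16 and Cyp3a18 came first (adjusted p = 0.196). The F test of a difference between the doses in their time courses called 0 of the 39, beside 0.00966% of all probe sets. It gave 3 of the 39 an unadjusted p below 0.05, beside 2962 of all probe sets, with Cyp4a8 first (adjusted p = 0.483). Without the narrow arrays 8 of the 39 had one, beside 3552 of all probe sets, with Cyp4a3 first (adjusted p = 0.226). The 0 h groups of both arms, which enter every dose comparison as controls, were compared directly. No CYP gene and 0% of probe sets were called. The median difference of the 39 genes (18 minus 3 mg/kg arm) was 0.41, beside -0.11 for all probe sets, and 27 of 39 lay above 0. At 48 h after 3 mg/kg the median changes from 0 h were 0.48 and -0.16. Without the narrow arrays the medians between the 0 h arms were 0.13 and -0.02, and 23 of 39 lay above 0. Unadjusted p lay below 0.05 for 13 of 39 genes, beside 6658 of all probe sets, and 12 of the 13 were higher in the 18 mg/kg arm. Without the narrow arrays these were 11 and 10 genes, beside 4718 of all probe sets. Cyp2c7 came first (log2 1.62, adjusted p = 0.108, and 1.48e-05 to 0.6 over its 14 alternatives), from 11.81, 9.77 and 12.74 against 13.15, 12.88 and 13.14. With both narrow arrays left out, that difference was 0.78 (adjusted p = 0.177), and Cyp2f4 came first (adjusted p = 0.157).

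Genes that serve or control these enzymes were counted from 7 lists, to be read against the 9.34% of all probe sets called at 48 h after 3 mg/kg (6% higher). At 48 h after 3 mg/kg, 1 of 28 transcriptional regulators was called, Nr3c1, the glucocorticoid receptor (log2 1.07, adjusted p = 0.0354), and neither Nr1i3 (CAR, 1.69, adjusted p = 0.0909) nor Nr1i2 (PXR, 1.09, adjusted p = 0.0848) passed. Among 17 genes of electron supply and heme, Cpox, a heme synthesis enzyme (1.79, adjusted p = 0.0413), and Hmox2, which degrades heme (1.41, adjusted p = 0.049), rose. The list's median was 0.81, beside -0.16 for all probe sets (0.48 beside -0.06 without the narrow arrays). Of 13 genes of the central zone, where most P450 enzymes lie, 3 rose: Cyp1a2 by 1.97, Oat by 2.354 and Rgn by 0.99 (adjusted p = 0.026, 0.0307 and 0.0406). Of 12 portal zone genes 2 rose, Hal by 1.51 and Gls2 by 1.87, both enzymes of amino acid breakdown (adjusted p = 0.0411 and 0.0365). Ghr, the growth hormone receptor, was the 1 of 15 growth hormone and sex-biased genes that rose (1.24, adjusted p = 0.0299). None of 8 genes of the PAR bZIP group and none of 17 PPARA targets was called there in limma, though Nr1d2 and Ehhadh came near (adjusted p = 0.0629 and 0.0569). No gene of these 7 lists fell. Several of these shares lie near or below that of all probe sets. In the fit without the narrow arrays, 8 genes of the lists were called (beside 4.42% of all probe sets), Cyb5a, Cyp1a2, Oat, Gstm1, Hal, Fbp1, Stat5b and Ehhadh, all higher, while Nr3c1, Cpox, Hmox2, Rgn, Gls2 and Ghr were not. Cyp1a2 and Oat then changed by 1.19 and 1.505.

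The PAR bZIP transcription factors are clock outputs known to drive CYP2A and CYP2C genes, and the REV-ERB receptors Nr1d1 and Nr1d2 are repressors in the same circuit. At 4 h, over both doses, Nr1d1, Nr1d2 and Dbp rose by 3.18, 2.44 and 1.78 (adjusted p = 7.5e-05, 0.000759 and 0.00386), 3 of the list's 8 genes, beside 0.0934% of all probe sets. In single doses Nr1d1 was called at both, and Nr1d2 after 3 mg/kg, and without the narrow arrays all 3 were called after 18 mg/kg. No CYP gene was called at that time, and the labels give no clock time for any group.

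Members differed widely in how much they varied between arrays of 1 group. Without the narrow arrays, the pooled SD within groups ran from 0.06 for Cyp2b3 and Cyp2c13 to 0.67 for Cyp4a8, with Cyp2c12 at 0.58 and Cyp3a9 at 0.53. Cyp2b3 and Cyp2c13 varied less than all but 0.1% of probe sets, and Cyp3a2 and Cyp4f4 (both 0.10) less than all but 0.7%. All 4 were bright, with liver means of 13.08, 13.32, 12.94 and 11.79 on the probe sets that stand for them. Whether these probe sets also read transcripts of related CYP genes was not tested.

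Cortex was set against liver at 0 h on the probe set that stands for each gene in liver. All 39 genes differed (32 to 39 over the alternatives, 32 where the dimmer members were not tested): 38 were lower in cortex, beside 46.5% of all probe sets, and 1 was higher, beside 30.8%. The median difference was -4.97 (log2), and -0.26 for all probe sets. For many genes the cortex values lay near the bottom of the scale, so the sizes depend on that floor and are not ranked. Cyp2c13 is one of them (log2 -8.46 ± 0.86 SE, adjusted p = 2.76e-11), with a median of 4.11 over the 20 cortex arrays low in hepatocyte markers. Cyp2j10 was the gene that read higher in cortex (log2 0.49 ± 0.19 SE, adjusted p = 0.0206), at 7.25, 7.31 and 6.61 in cortex and 6.83, 6.92 and 6.47 in liver in the low-dose 0 h groups. In the high-dose 0 h groups it read 7.01, 7.02 and 7.39 in cortex and 6.58, 6.12 and 6.75 in liver. Cortex and liver arrays overlapped for it in the low-dose groups and not in the high-dose groups.

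A few CYP genes were well measured in cortex. Cyp2d4, whose brain expression is textbook knowledge, ran from 7.60 to 8.24 in the 24 cortex arrays, lower than in liver by 2.02. Its other probe set read 7.62 to 8.02 in cortex and did not pass the test between tissues (log2 -0.29 ± 0.16 SE, adjusted p = 0.0941), so the probe sets disagreed. Cyp4v3 ran from 7.57 to 8.39, Cyp2u1 from 7.43 to 8.19, Cyp4f6 from 6.90 to 7.62, Cyp2j10 from 6.61 to 7.39 and Cyp3a9 from 6.20 to 6.97. In all, 9 of 39 genes lay above the median probe set of cortex, and 33 of 39 above that of liver.

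**Figure D4:**
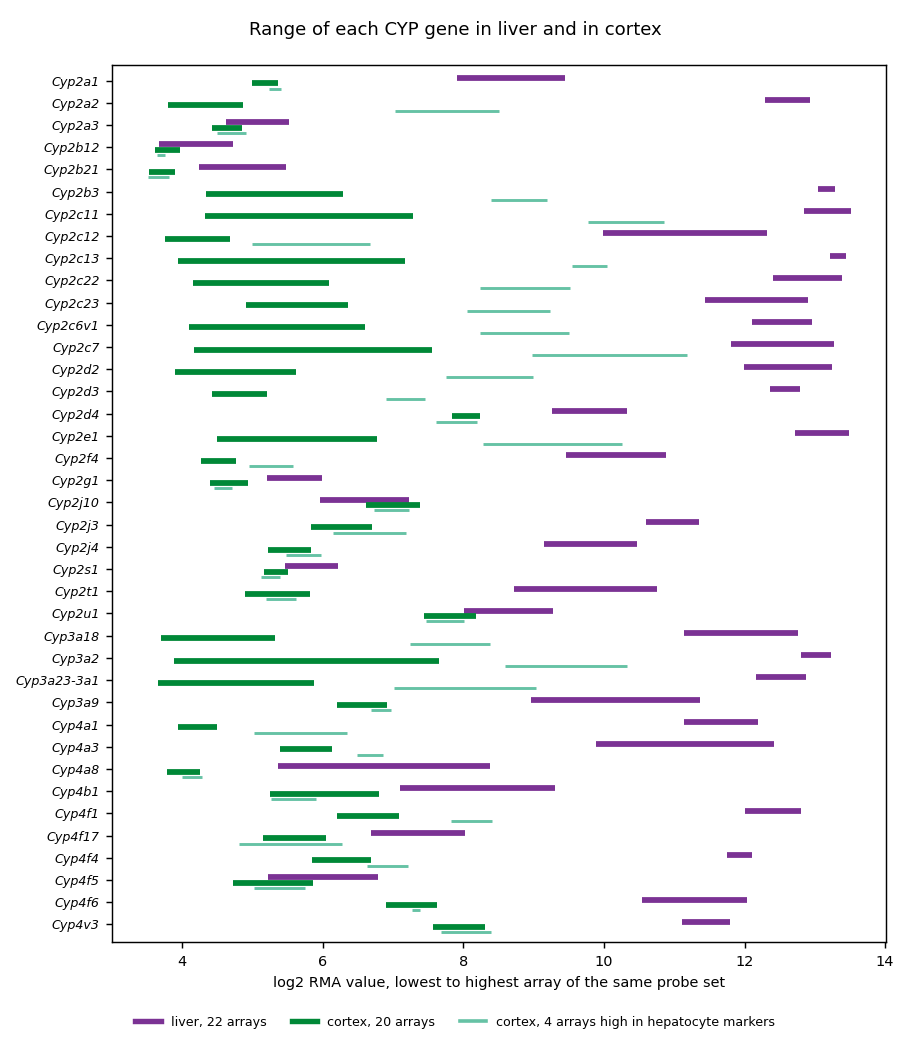
Range from the lowest to the highest array (horizontal axis, log2 RMA value) of each CYP gene (vertical axis) on 1 probe set, in liver (22 arrays of normal range), in 20 cortex arrays, and in the 4 cortex arrays rich in hepatocyte markers. Liver ranges lie to the right of the cortex ranges for nearly all genes; those of Cyp2j10, Cyp2u1, Cyp2s1, Cyp4f5, Cyp2a3 and Cyp2b12 overlap the cortex range, and for 19 genes the 4 arrays lie above the other cortex arrays and below liver.

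Many CYP values in cortex moved with hepatocyte transcripts. The mean of 10 hepatocyte markers was 9.95 to 10.89 in 4 cortex arrays: array 1 at 4 h after 3 mg/kg, array 2 at 4 h after 18 mg/kg, and arrays 2 and 3 at 48 h after 18 mg/kg. It was 7.24 to 7.79 in 3 more, and 4.85 to 6.02 in the other 17. The highest cortex value of the 10 markers ran from 8.01 for Fga, a fibrinogen chain, to 14.02 for Alb, the serum albumin gene. In 19 of the 39 genes (48.72%, beside 1.06% of all probe sets) all 4 arrays lay above all 20 others. Cyp2c11 is an example: it read 10.32, 4.69 and 4.60 at 4 h after 3 mg/kg, 4.62, 9.77 and 4.32 at 4 h after 18 mg/kg and 4.55, 10.86 and 10.85 at 48 h after 18 mg/kg, and its array 1 at 24 h after 18 mg/kg, one of the 3 middle arrays, read 7.28. Cyp2d4, Cyp2u1, Cyp2j10 and Cyp4v3 did not show this pattern.

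No CYP gene was called in any of the 6 cortex contrasts in limma, where 0% of all probe sets were called at 4 and 48 h after 3 mg/kg and at 4, 24 and 48 h after 18 mg/kg, and 0.0741% at 24 h after 3 mg/kg. Unadjusted p lay below 0.05 for 2, 0 and 0 genes at 4, 24 and 48 h after 3 mg/kg (3905, 4471 and 4026 of all probe sets). After 18 mg/kg it did for 4, 1 and 15 genes (3420, 1858 and 5151 of all probe sets). At 48 h after 18 mg/kg, the contrast with 2 arrays high in hepatocyte markers, 13 of those 15 were higher, and the largest difference was that of Cyp2c7 (log2 3.54, adjusted p = 0.283), from 4.90, 4.25 and 5.85 to 4.23, 10.20 and 11.18. With only the 17 arrays whose hepatocyte mean was at most 6.5, 1 gene passed in 1 contrast, Cyp4f1, lower at 24 h after 3 mg/kg (log2 -0.58, adjusted p = 0.0449).

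**Figure D5:**
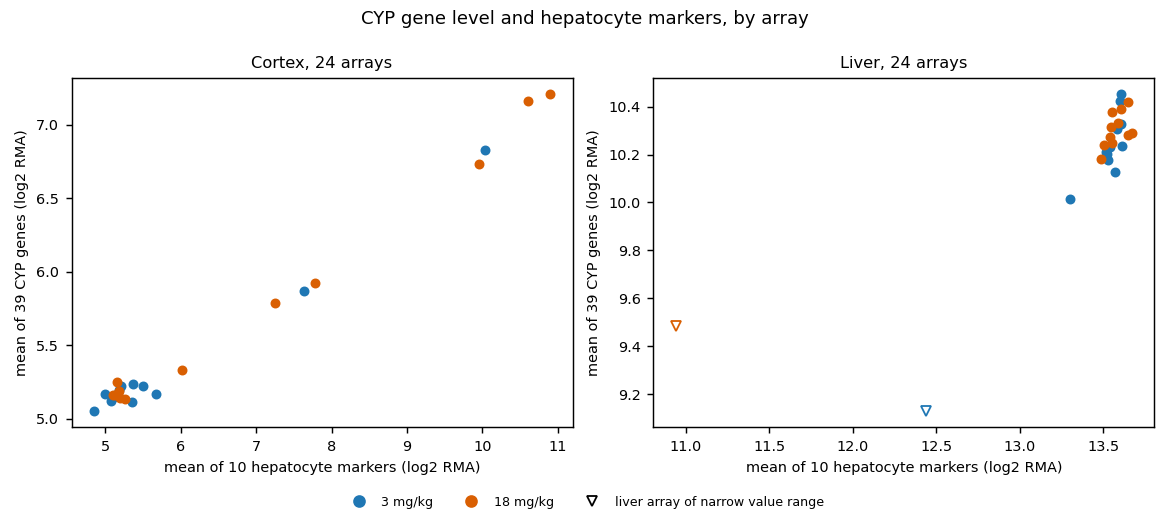
Mean of the 39 CYP genes (vertical axes, log2 RMA value) against the mean of 10 hepatocyte markers (horizontal axes) in each cortex array (left) and liver array (right), coloured by dose. In cortex 4 arrays stand at 9.95 to 10.89 and the CYP mean is highest there (6.73 to 7.21); in liver the 2 arrays of narrow range, drawn as triangles, are lowest on both axes.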

How the data were processed

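Brain cortex and liver of 3 arrays per group were analysed (48 arrays). The authors deposited log2 values; RMA and Partek are listed in the submitters' processing notes, with no version or role; RMA evens out the arrays' distributions, so a shift shared by most transcripts would be reduced. Of 31099 probe sets, 57 controls were left out, and 20826 had 1 symbol, 436 several and 9780 none in the platform annotation. Where a gene had several such probe sets, the brightest in a tissue stood for it. Linear models with a mean per group were fitted in limma 3.58.1 (R 4.3.3) over the 24 arrays of a tissue (all 48 for cortex against liver), with Benjamini-Hochberg adjustment over 31042 probe sets, two-sided, and were tested on simulated data. The number of arrays limits the precision. Members, lists and tests were chosen with earlier results of these data known. Genes were described by a rule: called members, a fixed list of well-known members, the smallest p of each other subfamily, and members called or higher in cortex; other members are given by level. Gene IDs were matched to RefSeq (GRCr8) for all 39. Same-numbered arrays were not paired. Normalisation, filters, weights, control group and left-out arrays were varied.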

Additional observations from a re-analysis of the deposited data

Results flagged for a closer look

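In 5 cases all 3 later arrays of a CYP gene lay on one side of the 0 h arrays in liver and all 3 on the opposite side in cortex. These differences between tissues were not tested. The 5 cases were found by searching every CYP gene at each dose and later time. With 3 arrays against 3, some such cases can arise by chance. The same count was not made over all probe sets, so whether 5 is unusual cannot be told. Cyp4f1 at 24 h after 3 mg/kg read 1.21 higher in liver and 0.58 lower in cortex, a difference of 1.79; the liver change was 0.43 without the narrow arrays. At 4 h after 18 mg/kg, Cyp2g1 was 0.51 higher in liver and differed from cortex by 0.77, and Cyp4f6 changed by -0.90 in liver and by 0.36 in cortex, a difference of -1.26. When the narrow arrays were left out, these liver changes were 0.28 for Cyp2g1 and -0.47 for Cyp4f6. Cyp4a8 differed by 1.53 at 24 h and by 1.27 at 48 h after 18 mg/kg, with cortex changes of -0.19 and -0.20. Cyp4a8 read 4.29 to 4.88 in cortex, on another probe set than in liver, and the probe set used in liver changed in cortex by -0.01 at 24 h and by 0.075 at 48 h, with overlapping arrays, so the opposite directions of Cyp4a8 do not hold on 1 probe set.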

How the results depend on the processing

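Called CYP genes at 48 h after 3 mg/kg numbered 10, and between 0 and 15 when single arrays were left out. They numbered 4 with quantile normalisation, 3 without the 2 narrow arrays, 18 with array weights, and 0 with pooled 0 h groups (also without the narrow arrays, an alternative chosen after seeing the data) or with the 2 groups alone. All counts here are of CYP genes alone. The share of all probe sets called moved too, from 9.34% to 4.42% without the 2 narrow arrays, and is not given for each alternative. Leaving out single arrays gave 0 to 5 calls at 4 h and 0 to 12 at 24 h after 3 mg/kg, 0 to 2, 0 to 4 and 0 to 6 for both doses at 4, 24 and 48 h, and 0 to 13 between the 0 h arms; the highest counts all came without array 3 of the 3 mg/kg 0 h group. Quantile normalisation gave 1 call for both doses at 4 h. Array weights, whose estimation stopped before convergence and which called up to 13240 probe sets in a liver contrast, gave 13 and 18 calls at 4 and 24 h after 3 mg/kg, 2 and 1 at 4 and 24 h after 18 mg/kg, 7, 9 and 12 for both doses, 19 between the 0 h arms, 17 for the dose difference and 9 over the 6 cortex contrasts. Cortex calls were 1 with hepatocyte means of at most 6.5 (chosen after seeing the data), and 0 to 7 with single arrays left out: 7 genes without array 1 at 48 h after 18 mg/kg, which leaves both arrays rich in hepatocyte markers, and 1 (Cyp2d4) without array 2. The counts not named here stayed within 1.5 times the main count. Between the tissues 32 to 39 genes were called, 32 with only the brighter probe sets tested and 36 after quantile normalisation. The 32 come from fewer than 39 genes, since the dimmer members were left out before that test. With the replicate number as a block the count at 48 h after 3 mg/kg was also 10, and no other count of called CYP genes changed. Within a tissue, same-numbered arrays of different groups did not deviate together (median correlation 0.006 in liver and -0.044 in cortex). Whether cortex and liver arrays of the same group and number come from 1 animal was not tested. The comparison of the tissues treated them as unpaired. Of the changes of all 39 genes over the 6 liver contrasts, called or not, the sign turned in 33 without the narrow arrays, 48 with quantile normalisation, 18 with centring, 40 with array weights, 38 with pooled 0 h groups, 69 with these and without the narrow arrays, and 5 with a gene's probe sets averaged. The 10 called changes kept their sign in each.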
